A study of Homo sapiens with 6 samples.

Results

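Interferon signalling genes and the antiviral genes that interferons induce were followed in SY5Y cells with and without DLX5 overexpression. The 52 genes were chosen by name, as the receptors, kinases, transcription factors, nucleic acid sensors and induced effectors of the pathway. All 52 were found among the 58735 genes of the count table. Earlier results of these data were known when the genes were chosen. SY5Y is a human neuroblastoma cell line, a tumour line of sympathetic neuron origin, and DLX5 is a homeodomain transcription factor related to fly Distal-less. Total RNA was sequenced from 3 libraries of SY5Y cells with DLX5 overexpression and 3 libraries of SY5Y control cells, all cultured in the same medium. No interferon, virus or other agent is named for either group. The labels do not say what the control cells carried, how DLX5 was introduced, whether a line was 1 clone, or whether replicates were separate cultures. The p-values therefore rest on the spread among these 6 libraries alone, and that spread may be technical.

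Interferons are secreted proteins that bind paired receptor chains on the cell surface. The receptors activate JAK kinases, and these phosphorylate STAT proteins. STAT2 joins IRF9 in the ISGF3 complex, which binds the interferon-stimulated response element in promoters and switches on antiviral genes. Cytosolic and endosomal sensors of viral nucleic acid act upstream and lead, through the factors IRF3 and IRF7, to interferon production. Many of the sensors and factors are themselves interferon-induced.

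Each library held 14644077 to 16886026 counts. DLX5 stood at 1582, 1569 and 1677 CPM (counts scaled to library size) with DLX5 and at 12.4, 12.3 and 13.8 CPM in the controls, so each library matched its label. The counts do not separate an introduced copy from the cells' own gene. Of 8 sympathetic neuroblastoma markers all were above 1 CPM in control, and all 8 were lower with DLX5, from a summed 4564 to 4920 CPM per library in control to 1817 to 1926 CPM. Of 9 fibroblast markers 8 were higher and PDGFRA did not pass. The 9 summed to 1549 to 1602 CPM in control and 6838 to 7100 CPM with DLX5. Most of the DLX5 sum was COL3A1 (mean 1089 CPM in control, 4383 CPM with DLX5) and COL1A1 (128 and 1947 CPM). Of all genes tested below, 29.8% were called higher and 28.8% lower. The part of these markers in the changes below was not tested. In bulk RNA fewer cells of a type and less RNA per cell cannot be told apart. Leukocytes make abundant interferon-induced messages. Of 10 leukocyte markers only CD14 had enough counts to be tested and it did not pass, CD3E had 0 counts in all 6 libraries and PTPRC 0 in the DLX5 libraries, and the list summed to 0.852 to 1.99 CPM with DLX5 and 2.04 to 2.80 CPM in control.

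Most of the interferon genes were higher with DLX5. A filter on low counts, which a gene passes when it has enough counts in 3 libraries, left 48 of the 52 to be tested. Of these 48, 39 passed, where 58.6% of all tested genes did. The 39 comprise 36 that rose and 3 that fell, and 9 did not pass (edgeR quasi-likelihood test, Benjamini-Hochberg adjusted p under 0.05 over all genes tested). Over all 17269 genes tested, 29.8% were called higher and 28.8% lower, against 75% and 6.25% of the tested interferon genes. At 2-fold or more 23 interferon genes rose and 2 fell, where 11.3% and 5.18% of all genes did. The 3 DLX5 values lay above all 3 control values in 35 of the 48 and below them in 3, beside 31.7% and 30.8% of all tested genes. The median log2 fold change was 0.85 over the 48 and 0.00 over all tested genes. A gene that is high in 1 group only can pass the filter through that group, so these shares describe the tested genes and not the pathway as a whole. The summed level of the 52 genes was 619 to 640 CPM in the controls and 1050 to 1069 CPM in the DLX5 libraries.

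**Figure D1:**
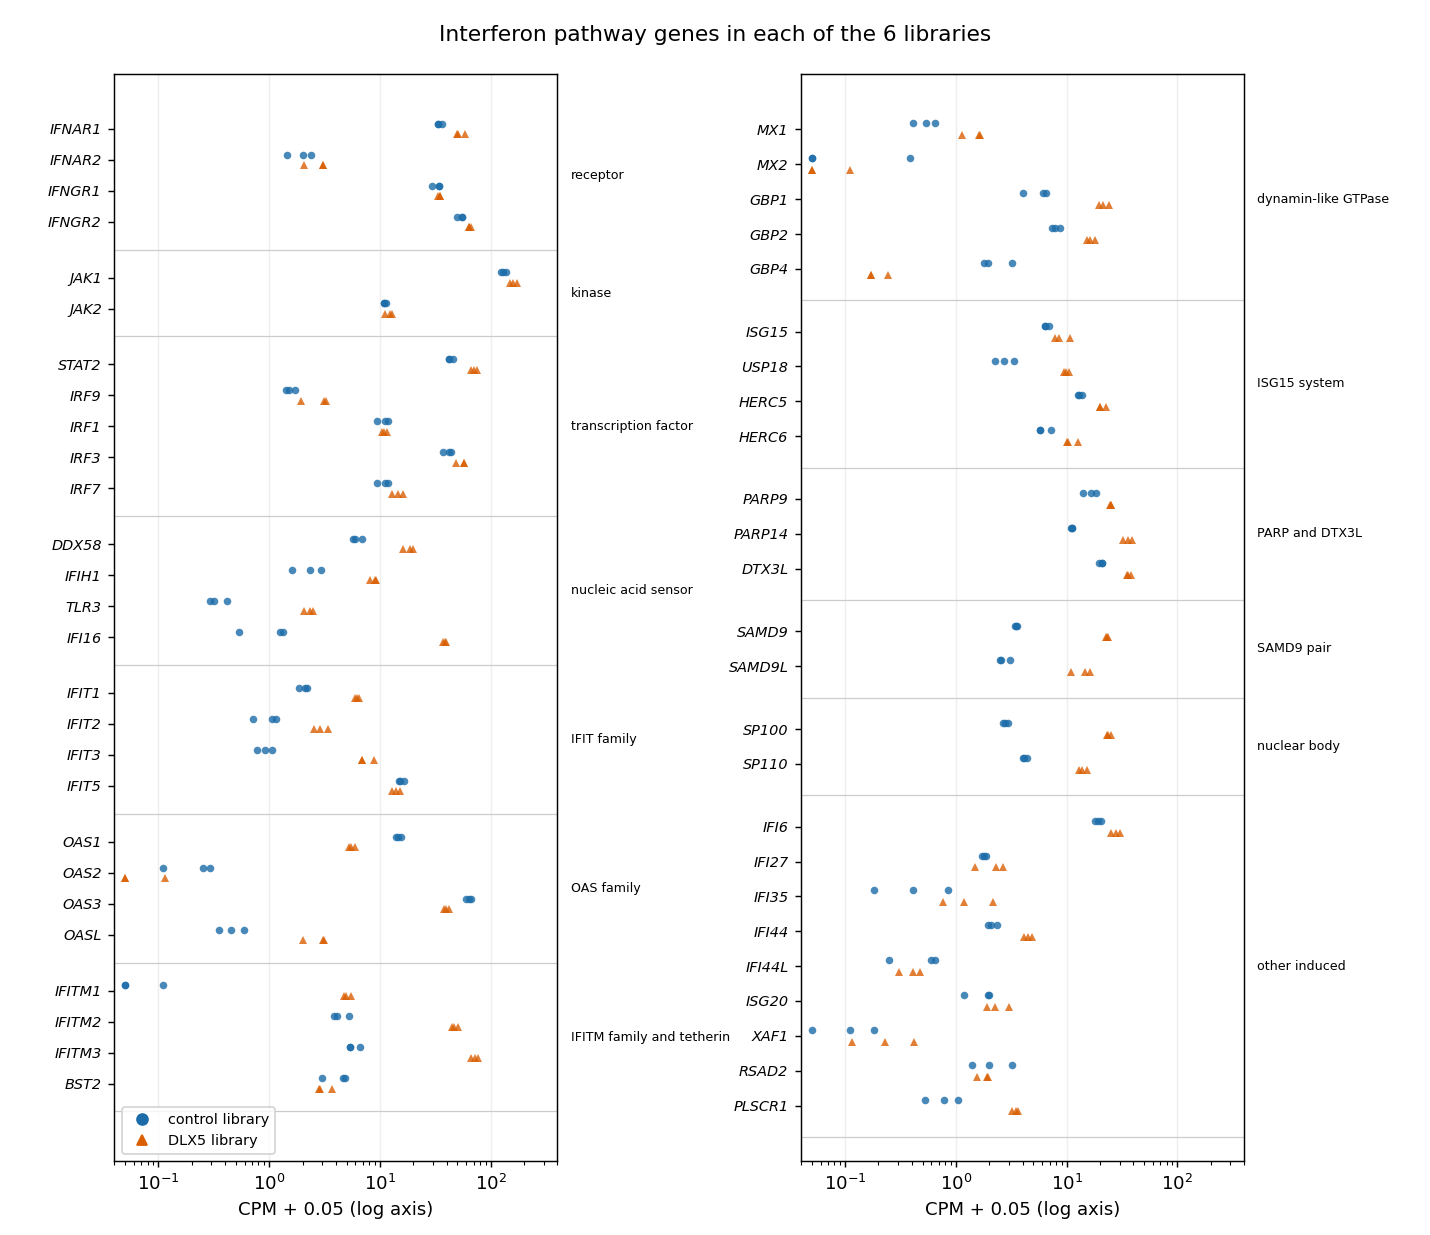
Level of each of the 52 interferon genes in each library, as CPM + 0.05 on a log axis, with circles for the 3 control libraries and triangles for the 3 DLX5 libraries, grouped by role. IFI16, the IFITM genes, SP100, IFIT3 and SAMD9 show wide gaps to the right, and OAS1, OAS3 and GBP4 the gaps to the left.

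The size of the rise differed by role. The 11 receptors, kinases and transcription factors, all above 1 CPM in both groups, included 7 that rose and 0 that fell, and none reached 2-fold. Their median log2 fold change was 0.41, and 63.6% rose and 0% fell, beside 29.8% and 28.8% of all tested genes. Of the 41 sensors and induced genes 37 could be tested. Of the 37, 29 rose and 3 fell (78.4% and 8.11%), and the median was 1.60. At 2-fold or more 23 rose and 2 fell, beside 11.3% and 5.18% of all tested genes. The families within the 37 differed, with medians from -0.67 (OAS) to 3.54 (IFITM with BST2), and 0.74 for the ISG15 system. Signalling genes were therefore changed by fractions of their level, while the sensors and induced genes ranged from a fall of 15.0-fold to rises above 30-fold. No test of the difference between the roles was made.

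**Figure D2:**
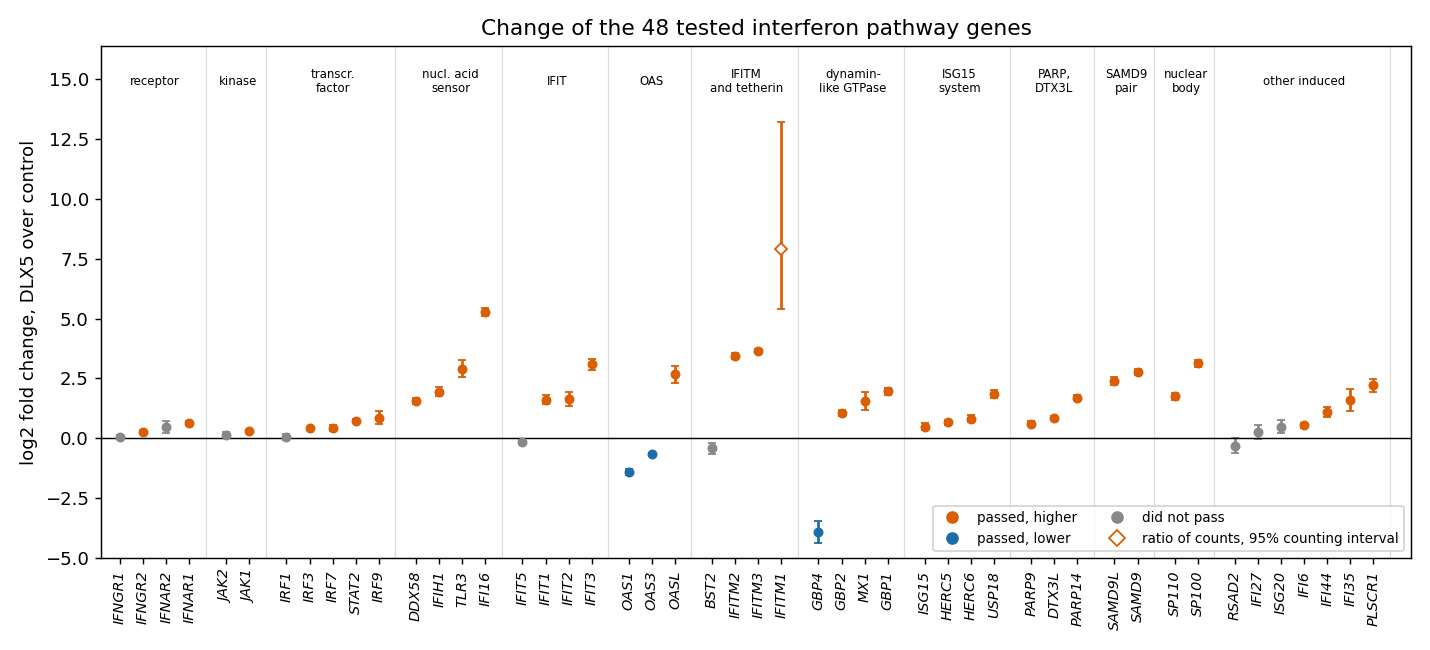
Log2 fold change, DLX5 over control, of the 48 tested interferon genes by role, with the standard error as bar. For IFITM1, with 1 control count, the diamond is the ratio of counts with its 95% counting interval. The signalling genes at the left lie between 0.04 and 0.86, IFI16 stands at 5.28 and GBP4 at -3.91.

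Promoter sequence was set beside these changes, because the induced genes are known for a shared element. Promoter windows of RefSeq (GRCh38.p14), from 250 bases before to 50 bases after the gene start, matched 41 of the 52 genes. The core of the interferon-stimulated response element, searched on both strands as GAAA, then any NN, then GAAA, was found in 23 of these 41 windows (56.1%) and in 3.65% of all 27305 windows. The genes were picked as interferon-induced, so this share describes the choice of genes. Among the windows, it occurred in 16 of 28 genes that rose, 2 of 3 that fell, 4 of 8 that did not pass and 1 of 2 that were not tested. The gamma-activated site, searched as TTCNNNGAA, was in 10 of 41 windows and 7.88% of all windows, and in BST2, IFI27 and IFITM1 it overlapped a response element match. The homeodomain core TAATTA, a sequence type that DLX proteins are known to bind, was in 2 of 41 windows, those of IFNAR1 and BST2, or 4.88% against 4.98% of all windows. A match is a run of letters and not a measured binding site.

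**Figure D3:**
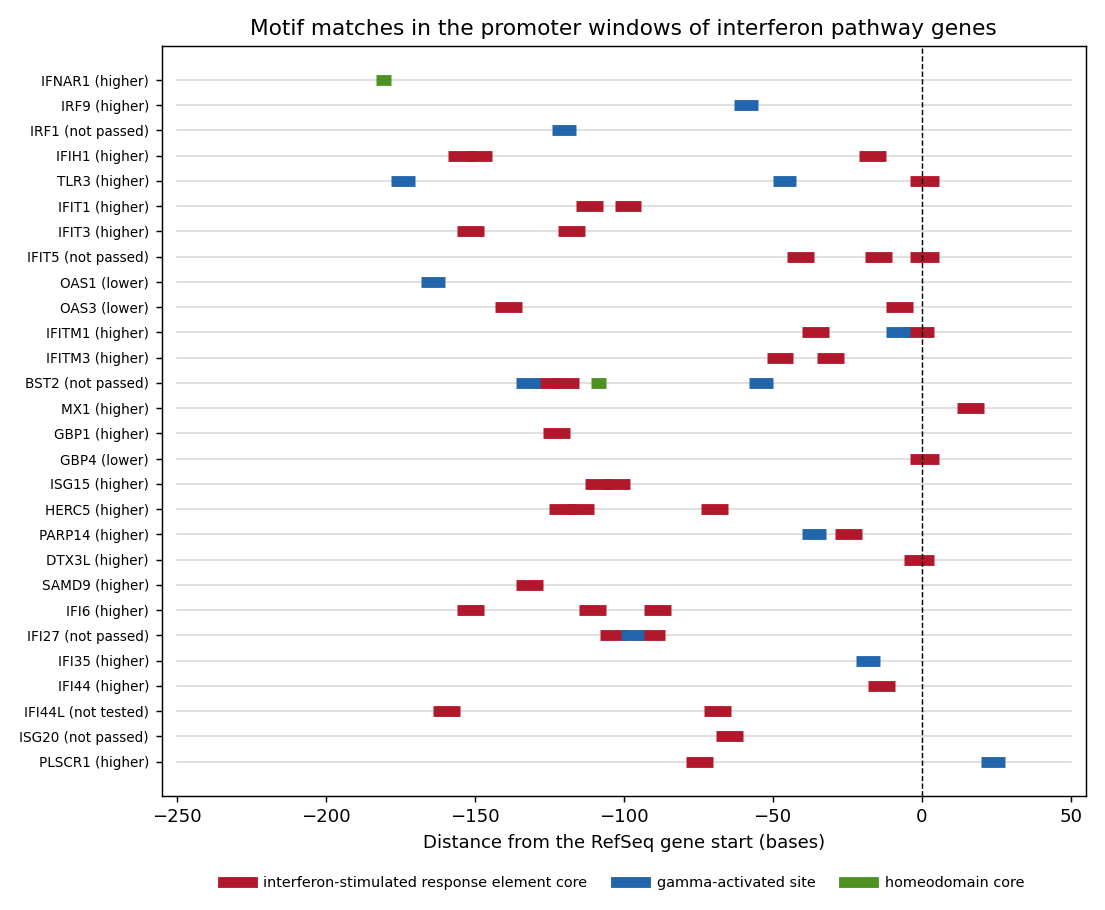
Positions of the 3 motifs in the promoter windows of the interferon genes with at least 1 match, as distance in bases from the RefSeq gene start (dashed line), with the test result of each gene in brackets. The response element match farthest upstream begins at -164, and matches lie in genes that rose and in genes that fell or did not pass.

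The 250 bases before the gene start are shown for 4 rising genes, those with the largest log2 fold changes among genes with a response element match there. They are not the 4 largest rises of all. IFI16 (log2 fold change 5.28) and SP100 (3.13) had windows without a match, and IFITM2 (3.43) had no window. Capitals mark the response element matches, and each is read 5′ to 3′ on the strand of its gene. The windows are chr11:313790-314039 (plus strand) for IFITM1, chr11:320861-321110 (minus strand) for IFITM3, chr10:89327747-89327996 (plus strand) for IFIT3 and chr7:93117980-93118229 (minus strand) for SAMD9.
IFITM1: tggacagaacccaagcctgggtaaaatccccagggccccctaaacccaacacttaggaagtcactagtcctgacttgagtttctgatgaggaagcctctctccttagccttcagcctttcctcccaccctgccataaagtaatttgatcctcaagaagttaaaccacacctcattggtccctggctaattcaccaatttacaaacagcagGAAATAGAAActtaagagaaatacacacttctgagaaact
IFITM3: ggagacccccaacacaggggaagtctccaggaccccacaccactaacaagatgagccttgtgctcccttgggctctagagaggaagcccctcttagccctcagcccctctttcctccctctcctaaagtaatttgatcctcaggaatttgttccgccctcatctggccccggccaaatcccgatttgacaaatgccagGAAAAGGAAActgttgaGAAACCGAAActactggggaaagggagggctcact
IFIT3: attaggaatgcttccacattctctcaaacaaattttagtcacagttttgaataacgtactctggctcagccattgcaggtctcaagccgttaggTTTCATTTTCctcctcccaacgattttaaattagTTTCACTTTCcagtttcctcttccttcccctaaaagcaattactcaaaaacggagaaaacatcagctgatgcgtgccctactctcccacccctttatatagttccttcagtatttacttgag
SAMD9: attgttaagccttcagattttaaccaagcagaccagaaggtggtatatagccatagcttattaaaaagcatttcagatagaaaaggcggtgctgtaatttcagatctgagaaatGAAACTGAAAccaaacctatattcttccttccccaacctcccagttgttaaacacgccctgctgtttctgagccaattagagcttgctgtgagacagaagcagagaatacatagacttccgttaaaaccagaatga
IFITM3 and IFIT3 each held 2 matches and IFITM1 and SAMD9 1 match in these stretches. Counted from the gene start, the first match began at -40 in IFITM1, -52 in IFITM3, -156 in IFIT3 and -136 in SAMD9. A further IFITM1 match spans the start itself and lies partly outside the stretch shown.

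The same element stood in front of genes that did not rise. For comparison, 30 bases around the first match are shown for 3 genes that rose (IFIT1, ISG15, GBP1), 1 that fell (OAS3) and 2 that did not pass (IFIT5, BST2), chosen after their values were seen. They lie at chr10:89392497-89392526, chr1:1013374-1013403, chr1:89065316-89065345, chr12:112938321-112938350, chr10:89414513-89414542 and chr19:17405741-17405770 in that order, with GBP1 and BST2 on the minus strand.
IFIT1: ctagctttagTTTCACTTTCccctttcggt
ISG15: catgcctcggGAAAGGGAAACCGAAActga
GBP1: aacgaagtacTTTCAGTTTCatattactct
OAS3: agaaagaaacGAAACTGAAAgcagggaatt
IFIT5: ttctattaagTTTCGGTTTCtgaagcttac
BST2: tcctttctggGAAACTGAAACTGAAAacct
A further IFIT1 match, at -103 to -94, lies partly outside the stretch shown and is not in capitals. Windows with and without a match were found among the genes that rose and among the others. Whether the element bears on the rises was not tested, and the genes without a window are not covered.

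Both chains of the type I receptor were expressed. IFNAR1 (ENSG00000142166, chromosome 21, 33324477 to 33359862, GRCh38), the chain that anchors the kinase TYK2, stood at 49.5, 58.4 and 50.7 CPM with DLX5 and 33.4, 36.1 and 33.1 CPM in control. Its groups did not overlap, and it rose by 0.63 ± 0.08 (log2 fold change ± SE, adjusted p = 1.56e-07). IFNAR2, the high-affinity chain, was low, at 3.01, 2.0 and 2.98 CPM with DLX5 and 1.41, 1.98 and 2.31 CPM in control, and its groups overlapped. It did not pass (log2 fold change 0.48 ± 0.26, adjusted p = 0.113), but passed without DLX5 overexpression replicate 2 (0.65, adjusted p = 0.0426). In the annotation 83.2% of its exonic bases are shared with other genes, so reads there are not its alone.

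The receptor for interferon gamma pairs the ligand-binding chain IFNGR1 with the signalling chain IFNGR2. IFNGR1 was at 34.8, 34.4 and 33.4 CPM with DLX5 and 34.0, 34.0 and 29.7 CPM in control, and did not pass (log2 fold change 0.07 ± 0.08). IFNGR2 rose slightly, with 64.0, 63.3 and 65.8 CPM against 54.9, 54.5 and 49.8 CPM (0.28 ± 0.07, adjusted p = 0.00105). IFNGR2, IFNAR1 and IFNAR2 lie within 249.4 kb of chromosome 21. TMEM50B, on the other strand, shares 12.8% of the exonic bases of IFNGR2.

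JAK1 and JAK2 transmit the signal from these receptors. JAK1, which serves both interferon receptors, stood at 159, 171 and 149 CPM with DLX5 and 124, 138 and 130 CPM in control. That is a rise of 0.29 ± 0.06 (adjusted p = 0.000403) with groups that did not overlap. JAK2, which serves interferon gamma, was at 11.1, 12.8 and 12.4 CPM against 10.7, 10.8 and 11.3 CPM. These overlapped, and JAK2 did not pass (0.14 ± 0.12, adjusted p = 0.315).

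Of the transcription factors STAT2 and IRF9, the partners in ISGF3, both rose. STAT2 (ENSG00000170581, chromosome 12, 56341597 to 56360155) was at 70.9, 66.4 and 75.5 CPM with DLX5 and 41.7, 45.8 and 42.0 CPM in control, a rise of 0.72 ± 0.07 (adjusted p = 2.97e-09). IRF9 was at 3.07, 3.23 and 1.89 CPM against 1.68, 1.38 and 1.46 CPM, and rose by 0.86 ± 0.27 (adjusted p = 0.00814). One DLX5 library of IRF9 lay close to the controls, and 48.4% of its exonic bases are shared with AL136295.5 on the same strand. Per gene length STAT2 reached 11.5 FPKM and IRF9 0.713 FPKM with DLX5, on the scale of deposited FPKM (fragments scaled to gene length and depth).

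IRF3 and IRF7 link the sensors to interferon production. IRF3 rose by 0.41 ± 0.08, from 43.3, 42.2 and 37.2 CPM in control to 57.7, 48.4 and 56.7 CPM (adjusted p = 9.86e-05). IRF7 rose by 0.44 ± 0.12, from 9.38, 11 and 11.7 CPM to 14.6, 12.8 and 16.1 CPM (adjusted p = 0.00301). Neither showed overlap between groups. IRF1, an early target of interferon gamma, was at 11.6, 10.5 and 10.8 CPM with DLX5 and 11.7, 11.1 and 9.26 CPM in control, values that overlapped throughout. Its log2 fold change of 0.04 ± 0.12 did not pass and changed sign when library totals were used without scaling factors (-0.03). BCL2L12 shares 19.3% of the exonic bases of IRF3 on the other strand, and 2 other genes share 22.0% of those of IRF1.

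All 4 sensors of nucleic acid rose, with groups that did not overlap. Of all tested genes 29.8% were called higher, and 31.7% had every DLX5 value above every control value. IFI16 (ENSG00000163565, chromosome 1, 158999968 to 159055155), a nuclear and cytosolic DNA sensor, was at 37.1, 38.9 and 39.1 CPM with DLX5 and 1.21, 0.480 and 1.28 CPM in control. It rose by 5.28 ± 0.16 on the log2 scale, 38.9-fold (adjusted p = 3.49e-20), and had 47 counts over the controls and 1862 over the DLX5 libraries. The counting error of these counts alone is 0.21, larger than the standard error. The control cells thus held little IFI16 message, and the 3 DLX5 libraries were close to each other.

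The 2 cytosolic RNA helicases moved less. DDX58, the RIG-I sensor of viral RNA ends, went from 6.77, 5.93 and 5.60 CPM to 16.0, 19.8 and 18.7 CPM (1.57 ± 0.13, adjusted p = 3.49e-11). IFIH1, the MDA5 sensor of long double-stranded RNA, went from 1.54, 2.28 and 2.86 CPM to 8.06, 9.17 and 8.89 CPM (1.95 ± 0.19, adjusted p = 1.16e-09). TLR3, the endosomal receptor for double-stranded RNA, was near the floor in control, with 14 counts in all and 0.268, 0.240 and 0.365 CPM. With DLX5 it was at 2.29, 2.45 and 2.01 CPM, a rise of 2.91 ± 0.37 (adjusted p = 1.86e-07). Counting error alone is 0.41 for TLR3.

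The IFITM genes encode small membrane proteins that block virus entry by fusion, and they lie together near the end of chromosome 11. IFITM3 (ENSG00000142089, chromosome 11, 319669 to 327537) was at 72.5, 66.7 and 75.9 CPM with DLX5 and 6.5, 5.33 and 5.30 CPM in control. It rose 12.6-fold, by 3.65 ± 0.10 (adjusted p = 2.47e-21), and had the smallest adjusted p of the 52 genes. IFITM2 went from 5.23, 3.78 and 4.08 CPM to 46.2, 44.3 and 50.2 CPM, a rise of 3.43 ± 0.11 (adjusted p = 1.74e-19). IFITM1 had 1 count over the 3 controls and 81, 73 and 90 counts in the DLX5 libraries. The ratio of scaled counts was 241, with a 95% counting interval of 42.9 to 9575 (exact binomial, counting error only), and its adjusted p was 4.76e-13. Without control replicate 2, which held the single count, the fitted log2 fold change of IFITM1 went from 7.46 to 9.33.

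The IFITM copies are close. The longest open reading frames of IFITM2 and IFITM3 were 94% identical over 399 aligned bases, those of IFITM1 and IFITM3 90.2% and of IFITM1 and IFITM2 86.9%, with identical runs of up to 141 bases. In the annotation 32.5% of the exonic bases of IFITM1 are shared with IFITM2. No source used here says how reads that match several copies were counted, so the split of reads between the 3 genes is uncertain. Each of the 3 was higher in all DLX5 libraries than in any control. BST2 (tetherin), which holds budding virus at the cell surface, did not rise. It was at 2.83, 3.62 and 2.74 CPM with DLX5 and 4.62, 4.80 and 2.92 CPM in control, and its log2 fold change of -0.43 ± 0.22 did not pass (adjusted p = 0.0948). BST2 passed as lower without DLX5 overexpression replicate 2 (-0.56, adjusted p = 0.0495). Leaving out control replicate 3 instead gave -0.63 (adjusted p = 0.018).

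The IFIT proteins bind foreign RNA caps and ends, and their genes share 137.3 kb of chromosome 10. IFIT3 (chromosome 10, 89327894 to 89340971) rose 8.52-fold, from 0.871, 1.02 and 0.731 CPM to 8.84, 6.84 and 6.82 CPM (3.09 ± 0.23, adjusted p = 5.08e-12). IFIT1 went from 1.81, 2.16 and 2.07 CPM to 5.90, 6.20 and 6.45 CPM (1.61 ± 0.19, adjusted p = 4.61e-08). IFIT2 rose by 1.64 ± 0.29, from a mean of 0.920 to 2.88 CPM, and LIPA, with 5555 counts, shares 1.58% of its exonic bases on the other strand. IFIT5, in contrast, had the highest level per length of the 4 in control, 3.81 FPKM. It held 14.7, 15.2 and 16.3 CPM there and 13.8, 15.2 and 12.8 CPM with DLX5, overlapping groups that did not pass (-0.15 ± 0.11, adjusted p = 0.235). The open reading frames of the 4 were 64.0% to 73.6% identical in pairs, with no identical run longer than 26 bases.

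The oligoadenylate synthetases make a short oligonucleotide second messenger when they bind double-stranded RNA, and these genes split. OAS1 (ENSG00000089127, chromosome 12, 112906777 to 112933222) fell, from 14.6, 13.8 and 15.5 CPM in control to 5.47, 5.88 and 5.24 CPM, a log2 fold change of -1.40 ± 0.13 (adjusted p = 3.89e-10). OAS3, at 7.61 FPKM the highest per length of the family in control, fell from 63.6, 59.8 and 66.4 CPM to 41.6, 39.6 and 37.9 CPM (-0.67 ± 0.07, adjusted p = 1.02e-08). In both genes every DLX5 library was below every control. OAS2, which lies with them in 104.9 kb, had 8 counts in control and 1 with DLX5 and could not be tested. Its ratio of scaled counts was 0.124 (95% counting interval 0.00279 to 0.923).

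OASL, a related protein without synthetase activity that lies elsewhere on chromosome 12, rose from 0.402, 0.539 and 0.305 CPM to 1.99, 3.03 and 3.04 CPM (2.67 ± 0.35, adjusted p = 3.28e-07).

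Guanylate-binding proteins are large GTPases that attack membranes of intracellular pathogens, and these too split within 1 cluster on chromosome 1. GBP1 rose 3.90-fold, from 3.95, 6.11 and 6.40 CPM to 19.5, 21.2 and 23.9 CPM (1.96 ± 0.14, adjusted p = 2.96e-12). GBP2 rose 2.07-fold, from 7.37, 7.73 and 8.65 CPM to 15.2, 18.0 and 16.1 CPM (1.05 ± 0.12, adjusted p = 2.71e-08). GBP4 (ENSG00000162654, chromosome 1, 89181148 to 89198932) fell 15.0-fold, from 1.74, 3.18 and 1.89 CPM to 0.120, 0.194 and 0.122 CPM (-3.91 ± 0.46, adjusted p = 4.26e-08). With 7 counts over the DLX5 libraries its counting error alone is 0.56.

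The MX genes encode dynamin-like antiviral GTPases and were barely expressed. MX1, often used as a readout of interferon exposure, had 9, 6 and 8 counts in the controls and 26, 25 and 18 with DLX5, and rose by 1.55 ± 0.38 (adjusted p = 0.000952) to a mean of 1.42 CPM. MX2 had 5 counts, all in 1 control library, against 1 with DLX5. The scaled ratio was 0.198, and counting error allows 0.00418 to 1.77. At this depth no difference in MX2 was detectable.

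ISG15 is a ubiquitin-like protein that is attached to other proteins, HERC5 is the ligase that attaches it in human cells, and USP18 removes it and also restrains the type I receptor. USP18 moved most, from 3.28, 2.22 and 2.68 CPM to 10.5, 9.88 and 9.31 CPM (1.87 ± 0.17, adjusted p = 3.01e-10). HERC5 went from 12.6, 12.9 and 13.8 CPM to 20.03, 22.7 and 19.97 CPM (0.67 ± 0.10, adjusted p = 2.37e-06). HERC6, its neighbour on chromosome 4, rose by 0.82 ± 0.14, from a mean of 6.17 to 10.9 CPM. ISG15 itself rose only from 6.37, 6.89 and 6.27 CPM to 8.54, 7.88 and 10.7 CPM (0.47 ± 0.15, adjusted p = 0.00669). Without DLX5 overexpression replicate 3 ISG15 did not pass (0.34, adjusted p = 0.0785).

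PARP9, DTX3L and PARP14 encode ADP-ribosyltransferases and a ubiquitin ligase partner that act in interferon signalling. The 3 genes lie in 202.9 kb of chromosome 3. PARP14 rose from 11.1, 11.1 and 11 CPM to 36.0, 39.1 and 32.2 CPM (1.69 ± 0.10, adjusted p = 2.72e-14). DTX3L rose from 20.8, 20.9 and 19.4 CPM to 35.0, 38.4 and 35.9 CPM (0.84 ± 0.08, adjusted p = 2.43e-09), and PARP9 by 0.62 ± 0.10, from a mean of 16.2 to 24.9 CPM. PARP9 and DTX3L are genes on opposite strands whose exons overlap over 217 bases, 2.43% and 3.70% of their exonic length.

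SAMD9 and SAMD9L, neighbouring genes on chromosome 7 whose proteins restrict poxviruses and cell growth, rose together. SAMD9 went from 3.48, 3.36 and 3.41 CPM to 23.6, 23.2 and 22.4 CPM (2.75 ± 0.12, adjusted p = 1.71e-16). SAMD9L went from 2.48, 3.06 and 2.44 CPM to 14.7, 16.3 and 10.9 CPM (2.38 ± 0.17, adjusted p = 3.39e-12). Both nuclear body genes rose as well. SP100, a core protein of PML nuclear bodies, rose 8.75-fold, from 2.88, 2.70 and 2.62 CPM to 23.6, 25.3 and 23.0 CPM (3.13 ± 0.13, adjusted p = 3.09e-17). SP110, a related chromatin reader, rose from 4.09, 3.96 and 4.32 CPM to 13.6, 15.2 and 12.9 CPM (1.75 ± 0.14, adjusted p = 2.26e-11). Other genes share 20.9% of the exonic bases of SP110.

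The remaining induced genes were mixed. PLSCR1, a phospholipid scramblase, rose from 1.01, 0.480 and 0.731 CPM to 3.19, 3.62 and 3.41 CPM (2.21 ± 0.29, adjusted p = 3.13e-07). IFI44 rose by 1.09 ± 0.21 to a mean of 4.44 CPM, and the mitochondrial protein gene IFI6 by 0.54 ± 0.09 to 27.8 CPM. IFI35 passed (1.60 ± 0.48, adjusted p = 0.0057) although its groups overlapped, with 0.134, 0.360 and 0.792 CPM in control and 1.14, 0.710 and 2.13 CPM with DLX5. It did not pass without DLX5 overexpression replicate 3 (1.08, adjusted p = 0.0891), and was 2.36 without control replicate 3.

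Several classical interferon-induced genes did not pass or could not be tested. IFI27, usually a sensitive marker of type I interferon, was at 1.44, 2.26 and 2.62 CPM with DLX5 and 1.68, 1.74 and 1.83 CPM in control (0.27 ± 0.28, adjusted p = 0.425). RSAD2 (viperin), which makes a chain-terminating nucleotide, was at 1.86, 1.49 and 1.89 CPM against 1.94, 3.18 and 1.34 CPM (-0.30 ± 0.30, adjusted p = 0.396), and its sign turned without control replicate 2 (0.09). ISG20, an exonuclease gene, had a log2 fold change of 0.49 ± 0.28 and overlapping groups. IFI44L, the neighbour of IFI44, had 22 counts in control and 17 with DLX5, and XAF1, a partner of the apoptosis inhibitor XIAP, had 3 and 10 counts. The XAF1 ratio was 3.30 with a 95% counting interval of 0.849 to 18.7. Neither had enough counts for the test.

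Levels per gene length put the changes in order. In control the highest of the 52 genes were IFI6 at 22.0 FPKM, JAK1 at 20.6 FPKM and IFNGR2 at 17.8 FPKM, and IFI6 and JAK1 were within their spread of each other. With DLX5 IFITM3 came first at 52.7 FPKM, followed by IFI6 at 31.9 FPKM and IFITM2 at 30.1 FPKM, and the last 2 did not differ beyond their spread. IFI16 moved from place 43 to place 11 of 52, IFITM1 from 50 to 16, and OAS1 from 15 to 36. MX2 was last in both groups. These places describe the sample means, and most genes lay within the spread of the next in order.

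**Figure D4:**
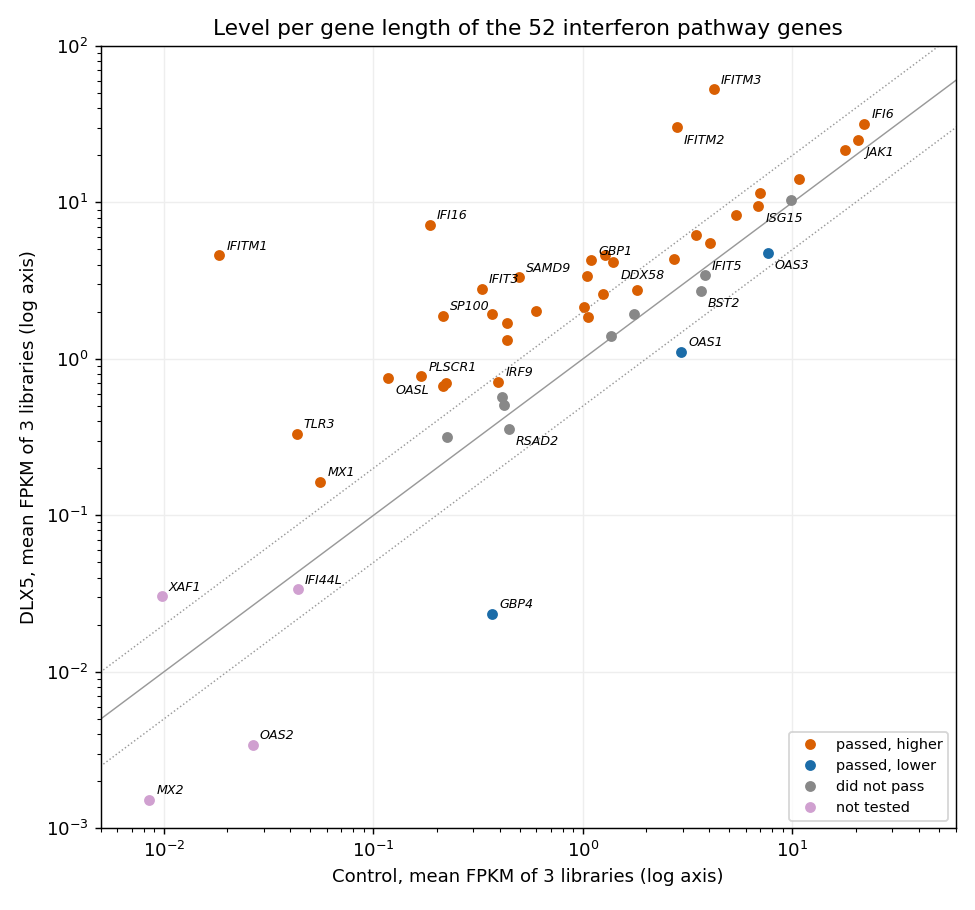
Mean FPKM of the 52 interferon genes in control (x) and with DLX5 (y), 3 libraries each, both axes logarithmic, with equality as a solid line and 2-fold change as dotted lines. IFITM1, IFI16, IFITM2 and IFITM3 lie farthest above the lines, OAS1, OAS2, MX2 and GBP4 below, and JAK1 and IFNGR2 near equality.

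The libraries of a group gave similar values for these genes. Over the 38 tested genes at 1 CPM or more in both groups the coefficient of variation had a median of 8.62% with DLX5 (0.906% to 28.6%) and 8.12% in control (0.594% to 43.5%). The widest were IFI27 with DLX5 and RSAD2 in control, both low genes. In 35 of the 48 tested genes each of the 3 DLX5 libraries was above all controls, beside 31.7% of all tested genes. For TLR3, IFI16, IFIT3, IFITM1, GBP4 and SP100 the standard error of the fit was smaller than the counting error of their summed counts.

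Messages of the 10 interferon ligand genes examined were almost absent, and no other ligand gene was examined. Of 10 ligand genes (IFNA1, IFNA2, IFNB1, IFNE, IFNK, IFNW1, IFNG, IFNL1, IFNL2, IFNL3) 7 had 0 counts in all 6 libraries, and the list had 0 counts in the controls and 3 in the DLX5 libraries, 1 each for IFNK, IFNL1 and IFNL3. A count of 0 over 3 libraries allows up to 0.0625 CPM in control and 0.0618 CPM with DLX5, from counting error only. The libraries hold cell RNA at 1 time, so earlier or brief ligand expression was not measured.

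Beyond the 52 genes, 87 further genes of the pathway were listed, also with earlier results of these data known. Of the 87, 60 could be tested. Of the 60, 35 rose and 8 fell, with a median log2 fold change of 0.42. That is 58.3% and 13.3%, beside 29.8% and 28.8% of all tested genes. The count of falls was 3 without DLX5 overexpression replicate 3, 4 without DLX5 overexpression replicate 1, 5 without DLX5 overexpression replicate 2 and 4 without control replicate 3. Among the 10 tested receptors, kinases, STATs and IRFs outside the 52, 7 rose and 1 fell, or 70% and 10%. STAT3, the STAT of the interleukin-6 family, rose from 155, 147 and 154 CPM to 293, 296 and 282 CPM (0.93 ± 0.06), and STAT5A from 4.79 to 14.7 CPM on average (1.62 ± 0.13).

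The adaptors that carry the sensor signal included a rise close to that of IFI16. TMEM173 (STING, chromosome 5, 139475534 to 139482935), the adaptor of cytosolic DNA sensing, was at 81.3, 78.9 and 86.6 CPM with DLX5 and 2.68, 2.28 and 1.64 CPM in control. It rose 37.5-fold, by 5.23 ± 0.12 (adjusted p = 4.09e-23). CGAS, the enzyme that makes the STING ligand, was picked with its values in view. Its 13 control counts and 43 DLX5 counts were too few for the test. The kinase IKBKE, which phosphorylates IRF3 and IRF7, rose from 3.42, 3.42 and 4.57 CPM to 23.2, 21.4 and 22.0 CPM (2.54 ± 0.13), and TRAF6 by 0.63 ± 0.11. Of the 13 tested sensing adaptors and effectors 5 rose, TMEM173, IKBKE and TRAF6 among them, 0 fell and 8 did not pass. The share that rose was 38.5%, beside 29.8% of all tested genes, and the list median was 0.15. No result about the list as a whole is read from these counts.

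Of 11 negative regulators 5 were higher and 4 lower, 45.5% and 36.4% beside 29.8% and 28.8% of all tested genes, with a median of 0.01. No result about the regulators as a list is read from these counts. The 3 with the smallest adjusted p all rose. SOCS2 rose by 0.77 ± 0.07, from a mean of 35.6 to 60.7 CPM, SOCS3 by 0.49 ± 0.07, from 43.9 to 61.7 CPM, and the STAT inhibitor PIAS3 by 0.45 ± 0.07, from 57.6 to 78.7 CPM. SOCS proteins block JAK kinases in feedback. SOCS2-AS1, with 1782 counts, shares 4.09% of the exonic bases of SOCS2 on the other strand, and without strand information reads there cannot be told apart.

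Of 26 tested interferon-induced genes outside the 52, 18 rose and 3 fell, with a median of 0.89. That is 69.2% and 11.5%, beside 29.8% and 28.8% of all tested genes. DDX60L, a helicase gene of the sensing pathway, rose from 7.10, 6.41 and 6.64 CPM to 30.0, 29.4 and 27.1 CPM (2.10 ± 0.11). PARP12 rose from 6.03, 4.38 and 4.02 CPM to 24.5, 26.2 and 26.2 CPM (2.42 ± 0.13). NLRC5, the transactivator of MHC class I genes, rose from 5.56, 4.56 and 5.18 CPM to 23.2, 20.4 and 22.2 CPM (2.11 ± 0.12). In all 3 the groups stood clear of each other. IRF8, ZBP1, AIM2 and IFIT1B had 0 counts in every library.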

How the data were processed

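RNA of 6 SY5Y libraries was measured, 3 per group. The counts were deposited as whole numbers per gene. The submitters' processing notes list HISAT2 2.0.5, featureCounts 1.5.0-p3 and hg19 but no settings. All 58735 genes nevertheless carry the identifiers, starts, ends and strands of GENCODE release 29, so coordinates are given as GRCh38. No source used here gives the strand setting. For levels per gene length the authors' FPKM were taken as deposited.

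The counts were tested with edgeR 4.0.16 in R 4.3.3: filterByExpr by group (17269 genes kept), TMM scaling, two-sided quasi-likelihood test, Benjamini-Hochberg adjustment over all genes tested, no covariate, threshold 0.05. After CPM or FPKM no error is printed where the 3 library values stand beside it. After a log2 fold change, ± is its standard error, derived from the F statistic. With 3 libraries a side, the smallest exact permutation p is 0.1. The test was checked on simulated counts. There only a small part of the genes was changed, none of them at low counts. That check therefore does not cover the low-count genes here.

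The genes and lists were chosen with earlier results of these data known. Library values are given for the receptors, kinases and transcription factors, and for the 24 other members with the smallest adjusted p at 1 CPM or more on average. Of each pathway list the 3 genes with the smallest adjusted p are named, except that an item withheld from the text is not reported here. Some other values are added to account for all 52. Exon overlaps came from GENCODE 29, and open reading frames from its transcripts, in place of the protein alignment that was planned. Within a group, the chi-square between libraries was 2.31 to 5.52 per degree of freedom, so none was taken for a copy. Alternatives were RLE, upper-quartile and no scaling factors, DESeq2 1.42.0, limma-voom (limma 3.58.1), 2 other filters, limma with pseudocounts of 1 and 0.1 on log2 FPKM, a replicate block, 2 stricter thresholds and each library left out.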

Additional observations from a re-analysis of the deposited data

How the results depend on the processing

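Members called higher numbered 36 and lower 3 in every alternative of scaling, tool, filter or unit, except 35 higher with a filter of 1 CPM in 3 libraries. Leaving out each library in turn gave 34 to 37 higher and 3 to 4 lower, and 35 to 37 higher and 3 to 7 lower among the other pathway genes. At 2-fold or more 23 of the 48 tested members and 16 of the 60 other tested pathway genes were higher, and 2 and 1 lower. Of all tested genes 11.3% were higher and 5.18% lower at that size. At an adjusted p under 0.01, 36 members were higher and 3 lower, and 35 other pathway genes were higher and 4 lower. The share of all genes at that threshold was not taken. The median over the members was 0.49 on log2(FPKM + 1) and 0.76 on log2(FPKM + 0.1), where the pseudocount shrinks low genes, and 0.78 to 0.96 with libraries left out. DLX5 kept its call throughout, at a log2 fold change of 6.93 to 7.02 with libraries left out. The log2 fold change of IRF1 turned sign without scaling factors (-0.0295), and with libraries left out ranged from -0.0605 to 0.103. The log2 fold change of RSAD2 ranged from -0.561 to 0.0939. For both, the cause was not tested. Of 48 tested members 42 kept direction and side of the threshold in every alternative run. Same-numbered libraries deviated together by correlations of only 0.01, 0.09 and -0.04, so the numbers were not taken to pair them. With the replicate block 36 members were higher and 3 lower, and 36 and 7 of the other pathway genes. Low counts limit OAS2, MX2, XAF1 and IFI44L, and near-identical copies the IFITM genes.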
